A study of Mus musculus with 59 samples.

Results

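The comparison described here is the step of the mouse forebrain between late gestation and adulthood in offspring of vehicle-treated dams. Adult cortex (3 arrays) was set against E18.5 forebrain (3 arrays), and the arrays were chosen by their labelled age, tissue and treatment, 6 of 59 in all. All mice were of the C57BL/6 strain. The adult samples were cortex of male offspring aged 12 to 13 weeks, kept without a running wheel. The fetal samples were forebrain taken at E18.5, with no sex given. The dams of both groups had received the vehicle, 0.5% methylcellulose (MC), by mouth once a day on embryonic days E12.5, E13.5 and E14.5. The series was built to follow the effects of prenatal valproic acid (VPA, 300 mg/kg, an anti-epileptic drug) on the brain, and the vehicle arrays carry the ordinary course of maturation. A second set of 3 adult cortex and 3 E18.5 forebrain arrays came from VPA offspring, and a further set of 3 adult and 3 E18.5 arrays from the hippocampus of MC offspring. The labels call the arrays of a group biological replicates but do not name litters, so the p-values measure the spread between these samples, whichever dams they came from.

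Between late gestation and adulthood the rodent forebrain ends most of its neurogenesis, and newborn neurons finish migrating and exchange growth-cone and migration proteins for synapses and ion channels. Astrocytes, microglia and, last of all, myelinating oligodendrocytes multiply and mature mostly after birth. Blood vessels gain transporters, and neurons become able to switch on activity-dependent genes.

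The signal of a gene is given as the deposited intensity scaled to a trimmed mean of 500 on every array, with values under 32 set to that floor before log2 was taken. Where an array of the lower group lay under the floor, the change is a lower bound on its size and is given as "at least". Changes are log2 of adult cortex over E18.5 forebrain, and a gene is called where limma's moderated test over 12870 genes gave a Benjamini-Hochberg adjusted p under 0.05. The tissue pieces differed. The labelled adult cortex held clear signal of genes typical of striatal neurons: Drd1, a dopamine receptor, read 1776, 1631 and 1457 in adult cortex and 511, 515 and 549 in E18.5 forebrain, while adult hippocampus of MC offspring read 192, 293 and 322. Ppp1r1b, a phosphatase inhibitor of dopamine-sensitive striatal neurons, read 3262, 2935 and 3087 in adult cortex and 544, 525 and 539 in E18.5 forebrain, against 471, 442 and 414 in adult hippocampus. Of 16 striatal genes listed, 14 were tested, 8 were higher and 4 lower in adult cortex, and Penk, which encodes the precursor of enkephalins, rose most (log2 change 3.19). The lower ones were Isl1 (-2.93), Ebf1 (-2.13), Rxrg (-1.07) and Foxp1 (-0.84), transcription factors, of which Isl1 and Ebf1 act in developing striatal neurons. Whether striatal tissue lay in the adult cortex samples was not tested.

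The E18.5 forebrain arrays held high signal of genes typical of choroid plexus. Ttr, the thyroxine carrier made by choroid plexus epithelium, read 312, 239 and 253 in adult cortex and 17010.5, 22402 and 23856 in E18.5 forebrain, the largest fall of all genes named by rule on measured signals (log2 change -6.29, limma adjusted p = 1.06e-09). The groups stood far apart, but Ttr did not follow age in all parts of the series. In hippocampus of MC offspring it read 277, 674 and 1071 in adults and 8604, 1287 and 26646 at E18.5. There every fetal value lay above every adult one. In VPA offspring it read 9946, 567 and 195 in adult cortex and 1029, 237 and 4389 in E18.5 forebrain, and in E14.5 telencephalon of MC offspring 20.8, 7.95 and 45.3. Of 12 choroid plexus genes 7 were tested. Folr1, Aqp1, Kcne2, Sostdc1 and Ttr were lower and Clic6 higher in adult cortex. The sum over the 11 genes with a probe set lay between 1259 and 1371 in adult cortex and between 18432 and 26599 in E18.5 forebrain. The call of Clic6 (0.52) was lost after quantile normalization, without the filter, without adult cortex replicate 1 or 2, in fits over 12 or 59 arrays and with inferred sex as a covariate, and its change was -0.61, not called, with the mean of its probe sets. That of Folr1 was lost in a fit over 12 MC arrays. The fall of the 5 genes and the amount of choroid plexus in the pieces cannot be told apart. Meningeal genes varied among the E18.5 forebrain arrays: Col3a1, a fibrillar collagen, read 122, 125 and 159.6 in adult cortex and 185, 1041 and 509.7 in E18.5 forebrain, and was not called without the filter. Of 18 meningeal and matrix genes tested, 7 were higher and 7 lower. Their median change of 0.27 turned to -0.15 without E18.5 forebrain replicate 1, to -0.25 after quantile normalization and to -0.53 with inferred sex as a covariate. Of 8 thalamic genes tested 3 were higher and 4 lower, and of 7 hypothalamic genes 5 were higher, among them Oxt, which encodes oxytocin (1457, 1845 and 1402 in adult cortex, 488, 517 and 554 in E18.5 forebrain). Adult hippocampus also read 1250.4, 1216 and 1653 for Oxt.

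Other features of the 6 arrays moved with age as well. The Xist signal was 241, 247 and 227 in adult cortex and 7507, 76.0 and 8229 in E18.5 forebrain, so E18.5 forebrain replicates 1 and 3 showed the female pattern and replicate 2 the male one. The median scaled signal was 151.4, 158.1 and 168.2 in adult cortex and 84.5, 88.8 and 88.3 in E18.5 forebrain, and the lowest share of probe sets under the floor was 18.6% in adult cortex and 32.3% in E18.5 forebrain. The change of a gene moved with its level: the median change was 1.29 in the fifth of genes with the lowest mean signal and -0.27 in the fifth with the highest. The Actb ratio of 3-prime to 5-prime signal, a sign of RNA integrity, was 1.23 to 1.32 in adult cortex and 1.15 to 1.16 in E18.5 forebrain. The same ratio for Gapdh overlapped between the groups, at 0.745 to 0.782 in adult cortex and 0.734 to 0.755 in E18.5 forebrain. The part of these differences in the results below was not tested, beyond the alternatives given at the end.

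Most tested genes changed. At the threshold 10446 genes were called (81.2%), 5482 higher (42.6%) and 4964 lower (38.6%) in adult cortex. Changes of 2-fold or more were found for 3205 higher (24.9%) and 1882 lower (14.6%) genes, and changes of 8-fold or more for 256 and 107. In 10724 genes (83.3%) the values of the groups did not overlap. The split between higher and lower calls moved with the processing. As scaled here 52.5% of calls were higher, against 48.4% after quantile normalization and 47.1% with a filter at a signal of 200. The share was 60.3% with the mean of the probe sets of a gene and 64.4% with the values as deposited. With arrays scaled on the spiked-in control transcripts it was 70.5%, and the median change of all tested genes was 0.45 in place of 0.05. Small changes are therefore to be read relative to that shift. The lists below are described by counts and medians, to be read beside these shares and the overall median of 0.05.

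**Figure D1:**
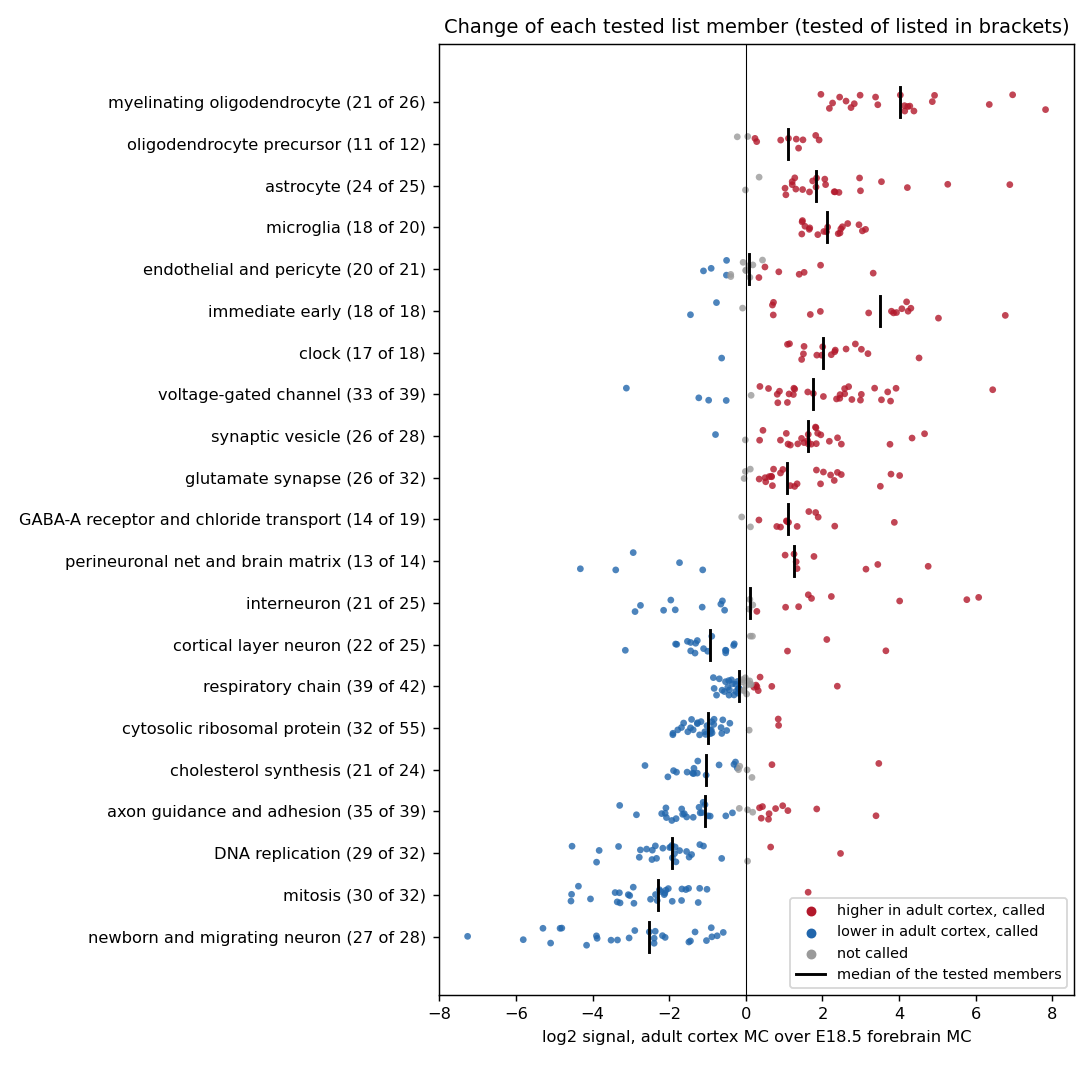
Each point is the log2 change (adult cortex MC over E18.5 forebrain MC, horizontal axis) of 1 tested gene in 21 of the gene lists, red where it was called higher in adult cortex, blue where called lower, grey where not called. Black bars mark list medians, which run from 4.03 for the myelinating oligodendrocyte list to -2.52 for the newborn and migrating neuron list.

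Among the 38 lists, that of myelinating oligodendrocytes had the highest median change. Mbp, myelin basic protein, which compacts the sheath, read 16442, 13531 and 16070.0 in adult cortex and 119, 116 and 133 in E18.5 forebrain, a log2 change of 6.97 ± 0.09 (SE; limma adjusted p = 2e-10). Mobp, another compact-myelin protein, read 7763, 6802 and 7239 in adult cortex and stayed under the floor in all 3 E18.5 forebrain arrays, so it was at least 227-fold higher in adult cortex. Mal, a proteolipid of myelin rafts, read 4319, 4097 and 4416 in adult cortex and 54.6, 62.4 and 41.7 in E18.5 forebrain. No value of one group came near those of the other. Of 26 genes listed for myelinating oligodendrocytes 22 had a probe set, 21 were tested and 21 rose, by a median of 4.03. Cnp, a myelin phosphodiesterase already present in the fetal brain, rose least but for Ppp1r14a (1.96), with a log2 change of 2.18. Sox10, the transcription factor that drives the lineage, rose by 2.75.

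Genes of the oligodendrocyte precursor changed far less. Of 12 listed, 11 were tested and 9 rose, by a median over the 11 of 1.11. Pdgfra, the growth factor receptor that marks precursors, read 837, 634 and 988 in adult cortex and 885, 1093 and 863 in E18.5 forebrain. Olig2, a transcription factor of the lineage, read 651, 679 and 537 in adult cortex and 612, 622 and 564 in E18.5 forebrain. For Pdgfra and Olig2 the groups overlapped and the test was not passed (limma adjusted p = 0.21 and 0.68), although Olig2 was called higher with spike-in scaling (0.44) and Pdgfra lower without adult cortex replicate 3 (-0.37). Gpr17, a receptor of cells about to myelinate, rose by 0.91, and Enpp6, an enzyme of newly formed oligodendrocytes that lay under the floor in E18.5 forebrain, by at least 1.91. In bulk tissue, more cells of a type and more RNA per cell cannot be told apart, here or in any list below.

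Astrocyte genes rose in 22 of 24 tested cases, with a median of 1.84. S100b, a calcium-binding protein of mature astrocytes, read 3904, 4081 and 3444 in adult cortex and lay under the floor in E18.5 forebrain, at least 119-fold higher in adult cortex. Slc1a2, the main glutamate transporter, read 14147, 11338 and 14684 in adult cortex and 1256, 1142 and 1042 in E18.5 forebrain (log2 change 3.54). Slc1a3, a glutamate transporter that radial glia also express, rose by 1.21. Aldh1l1, a folate enzyme, had a change of -0.01 with overlapping groups, but was called higher with the mean of its probe sets (0.45) and with spike-in scaling (0.38). Gjb6, a gap junction protein, read 28.9 in E18.5 forebrain replicate 1 and 149.6 and 123 in the other two, and its rise of at least 4.22 had an SE of 0.48.

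All 18 tested microglial genes of 20 listed rose, within a narrow band from 1.46 to 3.13. P2ry12, a purine receptor of resting microglia, read 1332, 1429.5 and 1351 in adult cortex and 165, 159 and 175 in E18.5 forebrain (log2 change 3.04). Csf1r, the receptor microglia need to survive, read 3899.7, 3772 and 4241 in adult cortex and 830.2, 987 and 956 in E18.5 forebrain (2.10). The groups did not overlap for either gene. Histocompatibility and complement genes rose in 11 of 11 cases. Cd74, the invariant chain of class II molecules, rose by 2.21, and B2m, the light chain of class I molecules, by 1.15. The 3 subunit genes of complement C1q, which microglia make, stand in both of these lists.

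Vessel genes did not move as a group: of 20 tested, 7 rose and 4 fell, and the median was 0.09, which became -0.066 with inferred sex as a covariate. Cldn5, the tight-junction claudin of brain endothelium, read 1532, 1521 and 1584 in adult cortex and 1298, 1600.1 and 1214 in E18.5 forebrain, with overlap (limma adjusted p = 0.104), although it was called higher after quantile normalization (0.32) and with spike-in scaling (0.58). Slco1a4, an organic anion transporter of the barrier, read 1246, 1289 and 1291 in adult cortex and 79.0, 168 and 155 in E18.5 forebrain (3.32). Mfsd2a, a lipid transporter that limits transcytosis, fell by 0.91 on the log2 scale, and Kcnj8, a pericyte channel subunit, by 1.11.

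Genes of the cell cycle fell. Rrm2, the ribonucleotide reductase subunit that supplies DNA precursors, read 132, 143 and 106 in adult cortex and 2971, 2902 and 2902 in E18.5 forebrain (log2 change -4.54 ± 0.11, limma adjusted p = 2.27e-09). Mki67, the Ki-67 antigen of cycling cells, read 24.0, 49.5 and 32.4 in adult cortex and 759, 799.9 and 751 in E18.5 forebrain, so that adult cortex lay near the floor. Of 30 tested genes of mitosis 29 fell, and of 29 tested genes of DNA replication 26 fell. The medians were -2.29 and -1.93. Pcna, the sliding clamp, which also serves repair, kept a signal of 2055, 1881 and 1998 in adult cortex, against 7011, 6943 and 7637 in E18.5 forebrain. The exceptions were Anln (1.63), a scaffold of the cleavage furrow that is also a component of myelin, Gins3 (0.65, not called after quantile normalization) and Orc1 (2.47). The last of these read 415, 439 and 316 in adult cortex on the probe set used. At E14.5 the telencephalon of MC offspring had averaged 2728 for Mki67 and 6058 for Rrm2.

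The promoters of both lists were searched for sites known from cell-cycle genes. RefSeq windows of 300 bases, from 250 bases before to 50 after the start (mouse build GRCm38.p6), were searched on both strands. An E2F-type site, TTTCCCGC or TTTGGCGC, stood in the windows of 10 of 27 DNA replication genes, or 31.2% of their windows, against 1.56% of all 32851 windows. A CCAAT box, CCAAT, stood in those of 21 of 28 mitosis genes, or 76.7% of their windows, against 37.4% of all windows. Neither motif contains the other. A match is a description of the sequence and not of binding. The windows of Mcm7 and Mcm6, subunits of the replicative helicase, and of Cdk1, the mitotic kinase, are shown on the strand of the gene. Mcm7 and Mcm6 fell by 3.32 and 2.78 on the log2 scale, and Cdk1 by at least 4.57. Capitals mark only the motif searched for the list of the gene, E2F-type for Mcm7 and Mcm6 and CCAAT for Cdk1. The windows of Mcm7 and Mcm6 also hold CCAAT boxes, which are left in small letters. Mcm7 lies at chr5:138171834-138172133 on the minus strand, Mcm6 at chr1:128359656-128359955 on the minus strand, and Cdk1 at chr10:69352863-69353162 on the minus strand.
Mcm7: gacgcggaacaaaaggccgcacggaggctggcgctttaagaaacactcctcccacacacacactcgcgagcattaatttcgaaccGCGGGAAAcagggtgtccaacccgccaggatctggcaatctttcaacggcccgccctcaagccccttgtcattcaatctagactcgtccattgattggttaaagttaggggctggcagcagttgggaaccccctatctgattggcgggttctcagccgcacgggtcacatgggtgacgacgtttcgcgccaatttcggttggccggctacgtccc
Mcm6: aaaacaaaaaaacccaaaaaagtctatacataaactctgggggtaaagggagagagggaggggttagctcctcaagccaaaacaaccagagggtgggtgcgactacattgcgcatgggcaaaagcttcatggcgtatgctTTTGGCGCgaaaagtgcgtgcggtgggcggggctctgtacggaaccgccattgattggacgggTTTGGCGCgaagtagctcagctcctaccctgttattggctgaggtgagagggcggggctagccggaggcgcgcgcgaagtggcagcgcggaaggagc
Cdk1: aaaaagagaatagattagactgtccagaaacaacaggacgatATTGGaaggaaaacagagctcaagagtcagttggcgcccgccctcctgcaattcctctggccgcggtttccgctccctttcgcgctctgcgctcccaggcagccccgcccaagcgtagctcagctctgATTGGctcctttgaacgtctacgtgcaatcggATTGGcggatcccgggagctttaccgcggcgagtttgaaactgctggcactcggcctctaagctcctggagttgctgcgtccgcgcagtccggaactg
The Mcm7 site is read on the opposite strand and begins 165 bases before the start. Mcm6 has matches 110 and 47 bases before the start, and Cdk1 has CCAAT boxes on the opposite strand 208, 80 and 48 bases before it.

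The progenitors themselves were not uniform. Of 24 tested genes of radial glia and neural stem cells 16 fell and 5 rose. Fabp7, the brain fatty acid-binding protein of radial glia, read 1395, 1329 and 1305 in adult cortex and 14695, 14841 and 16567 in E18.5 forebrain (-3.51), and Tnc, an extracellular matrix protein of the germinal zone, 96.7, 103 and 82.1 in adult cortex and 1771, 2031 and 1810.2 in E18.5 forebrain (-4.32). In both genes all adult values lay under all fetal ones. Sox2, a stem-cell transcription factor that astrocytes keep, fell by only 0.94, with 2309, 2393 and 2120.2 in adult cortex and 4485, 4185 and 4378 in E18.5 forebrain. Among the risers, Hmga2, a chromatin protein of fetal stem cells, read 134, 112 and 162 in adult cortex and 50.1, 47.6 and 27.7 in E18.5 forebrain, in the range of low signals where most genes rose, and was not called after quantile normalization. Intermediate progenitor genes fell in 10 of 13 tested cases. Eomes and Neurog2, transcription factors of cells that make excitatory neurons, fell by 3.42 and at least 4.19, and at E14.5 they had averaged 5501 and 5718, against 1047 and 709 at E18.5 and 98.8 and 28.2 in adult cortex.

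Every tested gene of the newborn and migrating neuron fell, 27 of 27, by a median of 2.52 on the log2 scale. Dcx, the microtubule protein doublecortin of migrating neurons, read 300.2, 343 and 389 in adult cortex and 11349, 11502 and 12364 in E18.5 forebrain (-5.10). Sox11, a transcription factor of immature neurons, read 471, 451 and 408 in adult cortex and 15973, 16941 and 19525 in E18.5 forebrain (-5.30). Cd24a, a surface glycoprotein of immature neurons, read 338, 406 and 245 in adult cortex and 16912, 17159 and 20573 in E18.5 forebrain (-5.81). The adult values of these genes were low in every array and the fetal ones high in every array. Igfbpl1, a binding protein-like gene of young neurons, lay under the floor in all adult arrays and was at least 154-fold lower in adult cortex. St8sia2, the enzyme that puts polysialic acid on NCAM in the fetal brain, fell by 4.85, and Draxin, a repulsive guidance molecule of commissural axons, by 4.81. Shared cytoskeletal genes fell least: Stmn1, a tubulin-binding protein, read 14688, 12485 and 14555 in adult cortex and 18947, 19718 and 24376 in E18.5 forebrain, a change of -0.59 that was not called with spike-in scaling. At E14.5 Dcx and Cd24a had averaged 11676 and 18016, close to their E18.5 values.

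**Figure D2:**
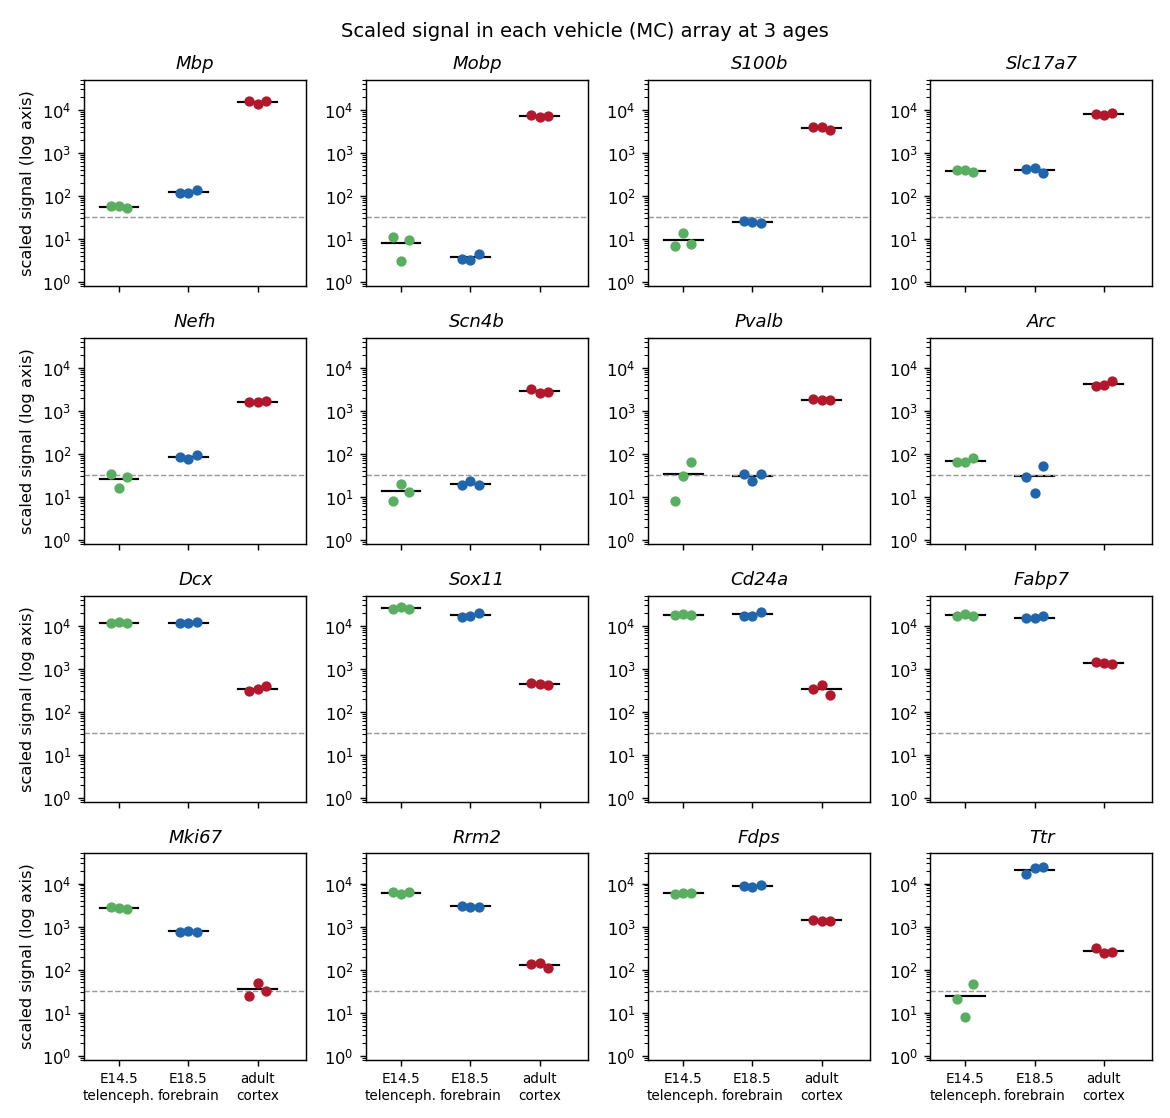
Scaled signal (log axis) of 16 genes in each vehicle array of E14.5 telencephalon, E18.5 forebrain and adult cortex. Points are arrays, bars are group means, the dashed line is the floor of 32, and values under 1 are drawn at 1. Dcx, Sox11, Cd24a and Fabp7 were high at both fetal ages and low in adult cortex, Mbp, Mobp, S100b and Scn4b had signal in adult cortex only or almost so, and Ttr was high in the E18.5 forebrain arrays alone.

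Synaptic vesicle genes rose in 24 of 26 tested cases, by a median of 1.63. Snap25, a SNARE protein of vesicle fusion, read 19081, 17053 and 16862 in adult cortex and 5104, 4690.0 and 4643 in E18.5 forebrain (1.88). Syp, synaptophysin, rose by 1.96. Within the vesicular glutamate transporters the members moved apart: Slc17a7, the transporter of adult cortical neurons, read 8176, 7531 and 8362 in adult cortex and 413, 442 and 340.0 in E18.5 forebrain (4.34), whereas Slc17a6, that of subcortical and young neurons, read 891, 884 and 818 in adult cortex and 1658, 1259 and 1606 in E18.5 forebrain (-0.79). Of the vesicle SNAREs, Vamp1 rose by 4.67 and Vamp2 by 1.63. Of the calcium sensors, Syt2 rose by at least 3.76 and Syt1 by 0.90.

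Of 26 tested genes of the glutamate synapse 23 rose and none fell at the threshold, with a median of 1.06. Ddn, the postsynaptic protein dendrin, read 9803, 9462 and 9833 in adult cortex and 622, 614 and 565 in E18.5 forebrain (4.02). Camk2a, the kinase of synaptic plasticity, read 6369, 4741 and 8009 in adult cortex and 1477, 1471 and 1120.0 in E18.5 forebrain (2.21). Of the NMDA receptor subunits, Grin2a, which enters receptors after birth, read 191, 141 and 147 in adult cortex and lay under the floor in E18.5 forebrain, at least 4.95-fold higher in adult cortex. Grin2b, the fetal partner, rose by 0.97. The AMPA receptor genes changed little, with Gria2 at 0.52 and Gria1 at 0.50. The scaffold genes Dlg4 and Dlg3 rose by 0.67 and 1.16.

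GABA-A receptor and chloride transport genes rose in 12 of 14 tested cases. Gabrd, the subunit of extrasynaptic GABA-A receptors, read 1468, 1499 and 1754 in adult cortex and 119, 105 and 98.1 in E18.5 forebrain (3.88). Slc12a5, the chloride exporter KCC2, which makes GABA inhibitory, read 10382, 9344 and 11211 in adult cortex and 3107, 2396 and 3303 in E18.5 forebrain (1.82). Slc12a2, the chloride importer NKCC1, read 2020.4, 1936 and 1894 in adult cortex and 1731, 1821 and 1832 in E18.5 forebrain, and its change of 0.12 did not pass (limma adjusted p = 0.0686), although it passed without adult cortex replicate 3, without the filter, after quantile normalization, with spike-in scaling and with the mean of its probe sets. Gabra5 also did not pass, at -0.11, but was called higher with spike-in scaling (0.28).

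Ion channel genes rose in 28 of 33 tested cases, with a median of 1.76. Scn4b, a sodium channel beta subunit, was under the floor in E18.5 forebrain and at least 87.2-fold higher in adult cortex, where it read 3168, 2515 and 2722. The sodium channel alpha subunits Scn1a, Scn8a and Scn2a rose by 3.36, 2.37 and 1.28, while the subunit genes Scn3a and Scn3b fell by 0.51 and 0.97 on the log2 scale. The call of Scn3a was lost without scaling (-0.33), with spike-in scaling (-0.12) and with the mean of its probe sets (-0.091). Kcna1 and Kcna2, potassium channels of the axon, rose by 3.78 and 3.70. Hcn3, a pacemaker channel, read 60.8, 74.3 and 149.5 in adult cortex and 754, 767 and 769 in E18.5 forebrain (-3.12), and Cacna1h, a T-type calcium channel, fell by 1.23.

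**Figure D3:**
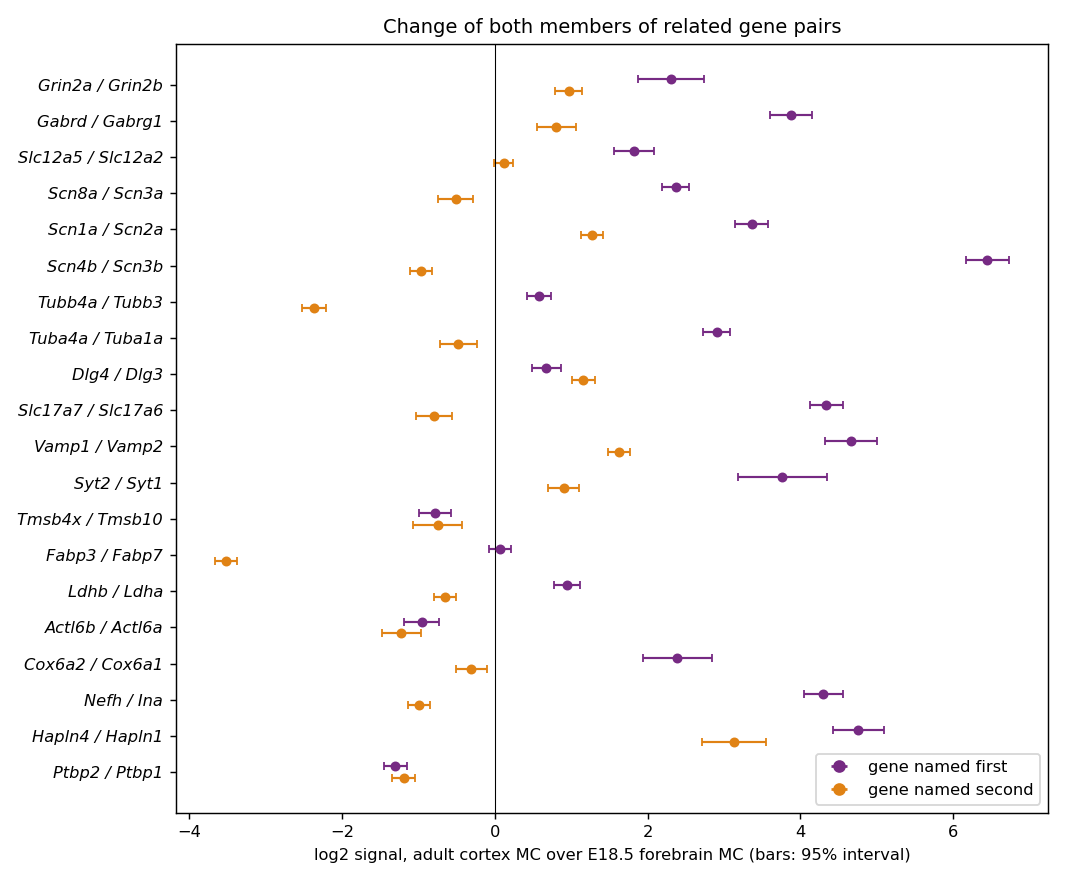
Log2 change (adult cortex MC over E18.5 forebrain MC) of both members of 20 related gene pairs, with 95% intervals from limma. The intervals of Slc17a7 and Slc17a6, Scn8a and Scn3a, Scn4b and Scn3b, Nefh and Ina and Ldhb and Ldha lie on opposite sides of 0. So do those of Tubb4a and Tubb3, Tuba4a and Tuba1a, and Cox6a2 and Cox6a1. The changes of Scn4b, Grin2a, Hapln4, Hapln1 and Syt2 are lower bounds on their size. The call of Scn3a was lost under 3 alternatives besides the 2-fold minimum, and those of Tuba1a and Cox6a1 were lost under several. The intervals of Tmsb4x and Tmsb10, and of Ptbp2 and Ptbp1, overlap.

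Cytoskeletal genes moved in both directions. Nefh, the heavy neurofilament subunit of large axons, read 1588, 1636 and 1681 in adult cortex and 82.9, 74.6 and 92.1 in E18.5 forebrain (4.30), while Nefm and Nefl rose by 1.39 and 1.10. Ina, the neurofilament protein of young neurons, fell by 0.99. Tuba4a, an alpha-tubulin of mature neurons, rose by 2.90, and the tubulins Tubb3 and Tubb2b fell by 2.37 and 2.40. Tuba1a fell by 0.48, a call that was lost after quantile normalization (-0.079), without scaling (-0.29), with spike-in scaling (-0.085) and with the sex covariate (-0.40). Among the microtubule-associated proteins Map1a rose by 3.62 and Map1b fell by 1.12. Mapt, which encodes tau, read 3371, 3392 and 3420.0 in adult cortex and 12128, 12741 and 13739 in E18.5 forebrain (-1.92). Map6 fell by 2.00 on the probe set used, while another of its probe sets rose by 1.51. In the list of 19 tested genes 7 rose and 11 fell.

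Of 35 tested genes of axon guidance and adhesion 22 fell and 10 rose. Epha3, an ephrin receptor, read 200.2, 194 and 196 in adult cortex and 1880.3, 2006 and 1904 in E18.5 forebrain (-3.29). Nrp2, a semaphorin co-receptor, fell by 2.86 and Dcc, the netrin receptor, by 2.07. Another probe set of Dcc, lower in signal, rose by 1.26. Cntnap1, which the list also holds and which flanks the node of Ranvier in myelinated axons, rose instead: it read 334, 310.4 and 370.0 in adult cortex and lay under the floor in E18.5 forebrain. Genes of the matrix around neurons moved in both directions as well, with 8 of 13 tested genes higher and 5 lower. Hapln4 and Hapln1, link proteins of the perineuronal net, lay under the floor in E18.5 forebrain and rose by at least 4.76 and 3.14, and Acan, aggrecan, by 1.78. Vcan, versican, read 243, 249 and 235 in adult cortex and 2527, 2651 and 2484 in E18.5 forebrain (-3.40), and Ncan, neurocan, fell by 1.73. Bcan, brevican, rose by 1.26.

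Of 21 tested interneuron genes 9 rose and 9 fell, close to the shares over all genes, and the median of 0.10 turned to -0.094 after quantile normalization. Pvalb, the calcium buffer of fast-spiking cells, read 1826, 1803 and 1802 in adult cortex and 33.8, 23.5 and 33.9 in E18.5 forebrain (at least 5.77). Vip, vasoactive intestinal peptide, read 2058, 2204 and 2232 in adult cortex and lay under the floor in E18.5 forebrain, at least 67.6-fold higher in adult cortex. Sst, somatostatin, was already high before birth, with 4474, 4716 and 4453 in adult cortex and 3795, 3398 and 4007 in E18.5 forebrain (0.29, not called in fits over 12 or 59 arrays), and Npy, neuropeptide Y, fell by 0.56, a call lost without scaling and with spike-in scaling. Dlx1, a homeobox gene of interneuron and striatal precursors, read 224, 238 and 257 in adult cortex and 2046, 1486 and 1849 in E18.5 forebrain (-2.89), and Lhx6, a factor of migrating interneurons, fell by 1.84. Gad1, the enzyme that makes GABA, rose by 1.38. Genes of striatal neurons share several of these markers.

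Most genes used to tell cortical layers apart fell, 17 of 22 tested, with 3 higher. Fezf2 and Bcl11b, factors that specify subcerebral projection neurons, fell by 1.81 and 1.53, Neurod6, of excitatory neurons, by 1.83, and Ntsr1, a receptor of layer 6 cells, by 3.15. The risers were Cplx3, a complexin (at least 3.66), Rasgrf2 (2.11), an exchange factor, and Rorb, of layer 4 (1.09). Peptide and trophic factor genes rose in 17 of 21 tested cases. Bdnf, a growth factor released with activity, read 469, 604 and 758 in adult cortex and 161, 176 and 133 in E18.5 forebrain (1.95), and Crh, corticotropin-releasing hormone, rose by 4.02.

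Immediate early genes, which neurons transcribe within minutes of activity, were among the highest risers. Of 18 tested, 15 rose and 2 fell, with a median of 3.50. Arc, a regulator of synaptic receptors, read 3683, 3962 and 4801 in adult cortex and 28.6, 12.3 and 52.2 in E18.5 forebrain (at least 6.77). Fos, a subunit of the AP-1 factor, read 4249.5, 4569 and 5154 in adult cortex and 124, 126 and 185 in E18.5 forebrain (5.03), and Egr1, a zinc-finger factor, 10438, 9369 and 12073 in adult cortex and 583, 556 and 545 in E18.5 forebrain (4.24). All adult arrays lay above all fetal ones in each of these. Jun, the partner of Fos, was not called (-0.09), but was called higher with spike-in scaling (0.31). Nr4a3, a nuclear receptor, read 769, 986 and 1475 in adult cortex and 2507, 3364 and 2687 in E18.5 forebrain (-1.45), while a second probe set of lower signal rose by 2.31, and the mean of its probe sets changed by 0.085. Fosl2, another AP-1 subunit, fell by 0.77, which turned to 0.23 with the mean of its probe sets and was not called with spike-in scaling (-0.38). The labels give neither the handling nor the hour at which the animals were killed, and the part of these was not tested.

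Genes of the circadian clock rose in 16 of 17 tested cases, by a median of 2.01. The labels do not give the hour at which the animals were killed, and its part in these changes was not tested. Hlf, a PAR-domain output factor, read 2949, 2504 and 3149 in adult cortex and 118, 159 and 102 in E18.5 forebrain (4.52), and Dbp, its relative, 1847, 1858 and 2176 in adult cortex and 255, 224 and 247 in E18.5 forebrain (3.02). Per3 and Nr1d1, parts of the negative limbs, rose by 2.86 and 2.62. Cry1, another repressor, fell by 0.63, with 400.1, 360.4 and 353 in adult cortex and 570.1, 595 and 559.9 in E18.5 forebrain, a call lost without scaling (-0.45) and with spike-in scaling (-0.24). The E-box of clock factors, CACGTG, which reads alike on both strands, stood in the promoter windows of 5 of 16 clock genes, or 27.3% of their windows, against 7.15% of all windows. The window of Ciart, a repressor of the clock that rose by 2.01, holds 3, which begin 116, 58 and 44 bases before the start. It lies at chr3:95882179-95882478 on the minus strand of GRCm38.p6 in RefSeq, with the E-boxes in capitals.
Ciart: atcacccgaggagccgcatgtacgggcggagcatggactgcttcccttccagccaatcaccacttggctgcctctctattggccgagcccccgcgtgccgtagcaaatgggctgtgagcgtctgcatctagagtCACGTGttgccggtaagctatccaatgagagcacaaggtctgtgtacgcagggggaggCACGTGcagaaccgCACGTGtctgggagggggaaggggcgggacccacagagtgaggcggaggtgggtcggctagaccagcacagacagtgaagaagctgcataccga

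Genes of growth fell. Of 32 tested cytosolic ribosomal proteins, from 55 listed, 29 fell and 2 rose, with a median of -0.98. Rplp0, of the ribosomal stalk, read 5306, 4781 and 4894 in adult cortex and 18178, 18334 and 19633 in E18.5 forebrain (-1.91). The 2 that rose, Rps27 and Rpl12, had low signals on their probe sets (254, 618 and 287, and 372, 447 and 373, in adult cortex). The call of Rps27 was lost after quantile normalization, without the filter, with the sex covariate and without E18.5 forebrain replicate 1 or 2 (0.82 and 0.79). Genes of this family have many near-identical copies, so that a probe set may not read its own gene alone. Cholesterol synthesis fell in 15 of 21 tested genes. Fdps, which makes farnesyl pyrophosphate, read 1429, 1352 and 1378 in adult cortex and 8631, 8148 and 9060.2 in E18.5 forebrain (-2.63), and Mvd, Sqle and Hmgcs1, earlier and later enzymes of the path, fell by 2.04, 1.89 and 1.36. Cyp46a1, the neuronal enzyme that turns cholesterol over, rose by 3.47, with 5413, 4793 and 5016 in adult cortex and 464, 456 and 451 in E18.5 forebrain.

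Energy genes moved in both directions. Eno2, neuron-specific enolase, read 10394, 9055 and 10721 in adult cortex and 1237, 1092 and 1128 in E18.5 forebrain (3.12). Pfkp, a phosphofructokinase, rose by 2.28, and of 19 tested glycolysis genes 13 rose and 2 fell. Ldhb, the lactate dehydrogenase subunit of oxidative tissue, rose by 0.94, and Ldha, that of glycolytic tissue, fell by 0.65. Of 39 tested respiratory chain genes 7 rose and 21 fell, and their median of -0.19 turned to 0.056 after quantile normalization and to 0.20 with scaling on the spiked-in controls. Cox6a2, a tissue-specific subunit of cytochrome oxidase, rose by 2.39, whereas its ubiquitous partner Cox6a1 fell by 0.31. The change of Cox6a1 turned to 0.056 and 0.083 under the same 2 alternatives. Its call was also lost without scaling (-0.13), without the filter and with the sex covariate (-0.25).

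Chromatin genes of growing cells fell in 24 of 28 tested cases. Ezh2, the histone H3 lysine 27 methyltransferase, read 123, 164 and 168 in adult cortex and 2411, 2438 and 2444 in E18.5 forebrain (-4.02). Hdac2, a histone deacetylase, fell by 1.80 and Hmgb2, a high-mobility-group protein, by 3.54, whereas Hdac11, a deacetylase of mature oligodendrocytes and neurons, rose by 1.90. Imprinted growth genes fell in 10 of 14 tested cases. Cdkn1c, a cell-cycle inhibitor, and Nnat, neuronatin, fell by 2.65 and 2.47, while Snrpn, a splicing protein gene, rose by 2.57 with a spread among the adult arrays (509, 900.5 and 473). Of 11 tested genes of fetal RNA-binding proteins 4 rose and 6 fell. Their median of -0.20 turned to 0.012 after quantile normalization and to 0.19 with spike-in scaling. Igf2bp1, a fetal messenger RNA-binding protein, fell by at least 2.73, and the splicing regulators Ptbp2 and Ptbp1 fell by 1.31 and 1.19. With the mean of its probe sets Ptbp1 changed by -0.081 and was not called. Of 11 tested thyroid hormone genes 6 rose and 3 fell. Klf9, a hormone-induced factor, read 7863, 7666 and 8711 in adult cortex and 424, 492 and 432 in E18.5 forebrain (4.17). Thrb, a thyroid hormone receptor, rose by 2.58. That list also holds Mbp and Ttr.

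Genes that no list held appear among the 12 largest rises and falls. Fam107a, an actin-associated protein of astroglia, read 9228, 7969 and 9490.0 in adult cortex and 148, 173 and 142 in E18.5 forebrain (5.85). Lamp5, a lysosome-family membrane protein of forebrain neurons, rose by 5.80, Ano3, of the anoctamin family, by 5.22, Slc24a2, a sodium-calcium exchanger, by 5.20, and Gpr37l1, a receptor of astrocytes, by 5.29. Kalrn, an exchange factor of dendritic spines, rose by 5.10 on the probe set used, but a further probe set of Kalrn fell by 1.04. Il33, a cytokine of glial nuclei, lay under the floor in E18.5 forebrain and was at least 46.5-fold higher in adult cortex. On the falling side, Trim67, a ubiquitin-ligase family protein of the brain, read 72.8, 79.9 and 47.3 in adult cortex and 2378, 2397 and 2259 in E18.5 forebrain (-5.17). Vash2, a tubulin carboxypeptidase, fell by 5.07, B3gnt5, a glycosyltransferase, by 4.59, and Cxcr4, the chemokine receptor of migrating interneurons, by 4.38. Zfp57, a zinc-finger protein that guards imprints, lay under the floor in adult cortex and was at least 16.4-fold lower there.

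The step was repeated in the arrays of VPA offspring, which share no array with the MC ones. There 10533 of the same 12870 genes were called (81.8%), 5499 higher (42.7%) and 5034 lower (39.1%). In both sets 9755 genes were called in the same direction, 93.4% of the MC calls and 92.6% of the VPA calls, and 7 in opposite directions. Across genes, which are not independent replicates, the changes of the 2 sets had a Pearson correlation of 0.978 and a median absolute difference of 0.13. Myelin followed in VPA offspring with 21 of 21 tested genes higher, microglia with 18 of 18 and the newborn neuron list with 27 of 27 lower. Other lists repeated less closely: of 11 tested oligodendrocyte precursor genes 8 were higher and 3 lower in VPA offspring, against 9 and 0 in MC offspring, and of 7 choroid plexus genes 3 were higher and 1 lower, against 1 and 5. Mbp changed by 6.40 in VPA and by 6.97 in MC offspring, and Dcx by -5.07 and -5.10. Ttr had a change of 0.01 in VPA offspring and -6.29 in MC offspring, with the array values given above.

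**Figure D4:**
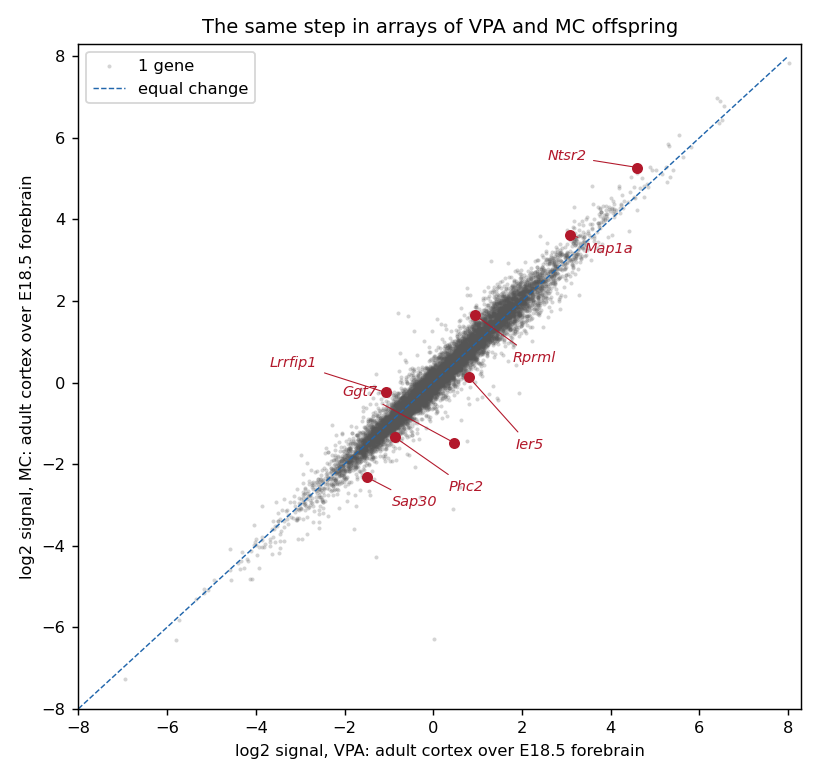
Each grey point is 1 of 12870 genes, with its log2 change (adult cortex over E18.5 forebrain) in VPA offspring on the horizontal axis and in MC offspring on the vertical axis. Red points are the 8 genes named by rule whose change differed between the treatments, the dashed line marks equal change, and the isolated point near 0 and -6.29 is Ttr.

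A difference of the step between VPA and MC offspring was tested as an interaction over the 12 arrays. Of 13627 genes tested 9 were called (0.066%), 5 higher in VPA (0.0367%) and 4 lower (0.0294%), and 1505 had an unadjusted p under 0.05. Ggt7, of the gamma-glutamyltransferase family, read 906, 936 and 1014 in adult cortex and 660.4, 672 and 722 in E18.5 forebrain of VPA offspring, against 219, 149 and 256 in adult cortex and 604, 594 and 506 in E18.5 forebrain of MC offspring. The adult MC arrays stood apart from the other 9, and the difference of the changes was 1.96 ± 0.22 (SE; limma adjusted p = 0.00654). Kcne2, a choroid plexus gene outside the naming rule and named after its values were seen, was also called. It read 79.3, 31.2 and 4.17 in adult cortex and 16.9, 10.8 and 31.6 in E18.5 forebrain of VPA offspring. In MC offspring it lay under the floor in adult cortex and read 179, 371 and 315 in E18.5 forebrain. Most of these values lie under the floor, so no size of the difference is given. The other 7 were Sap30 (0.82), Ier5 (0.67), Phc2 (0.47), Map1a (-0.53), Ntsr2 (-0.67), Rprml (-0.73) and Lrrfip1 (-0.83), none of them called without scaling. Without the filter only Ntsr2 of the 8 genes named by rule was called, and Ggt7 had a limma adjusted p of 0.0528. That was the only alternative under which Ggt7 lost its call. Phc2 and Ntsr2 were not called with 32 added before log2. With the replicate number as a block 5 of the 8 lost their call. Ntsr2, a receptor of astrocytes, read 3311, 3294 and 3284 in adult cortex of VPA offspring and 3266, 2870.2 and 3197 in that of MC offspring, while E18.5 forebrain read 126, 142 and 139 in VPA and 80.9, 79.3 and 81.2 in MC offspring. The number of calls ran from 1 to 15 when single arrays were left out, was 30 after quantile normalization and 3 with the replicate number as a block.

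The step of the cortex was then set against that of the hippocampus in MC offspring (adult hippocampus over E18.5 hippocampus). Of 13722 genes tested the change differed in 1876 (13.7%), with 920 higher in the cortex step (6.7%) and 956 lower (6.97%). Of the called genes 868 had positive fitted changes in both steps, 605 negative ones in both, and 402 had opposite signs, of which 41 changed by at least 0.5 in each. Replicate 3 of E18.5 hippocampus held more choroid plexus signal than the other two (Ttr 8604, 1287 and 26646).

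**Figure D5:**
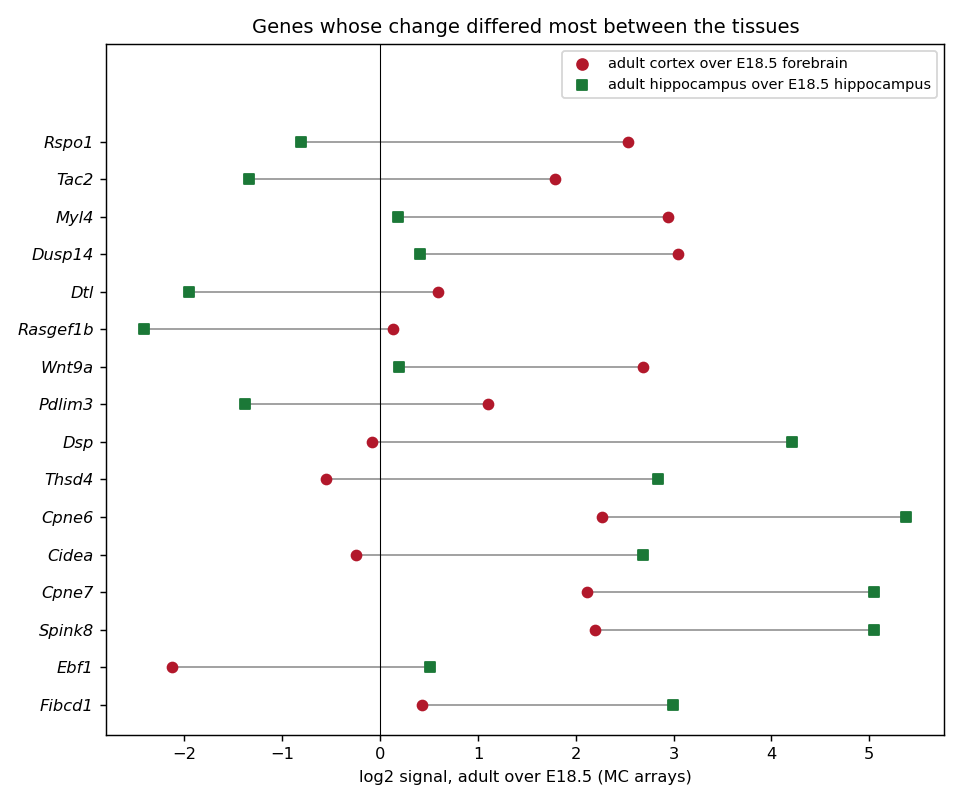
Log2 change (adult over E18.5, MC arrays) in cortex and forebrain (red circles) and in hippocampus (green squares) for the 16 genes named by rule. The upper 8 changed more upward in the cortex step, from Rspo1 (difference 3.35) to Pdlim3 (2.49), and the lower 8 in the hippocampus step, from Dsp (-4.29) to Fibcd1 (-2.56).

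Of the myelinating oligodendrocyte list 1 of 21 tested genes was higher and 2 lower in the cortex step, with a median difference of -0.03, and of the mitosis list 1 of 31 was higher and none lower. Of the immediate early genes 9 of 18 were higher in the cortex step and 1 lower, with a median difference of 0.92. Fos read 4249.5, 4569 and 5154 in adult cortex against 124, 126 and 185 in E18.5 forebrain, and 1041, 1861 and 1501 in adult hippocampus against 96.0, 121 and 104 in E18.5 hippocampus, a difference of 1.28. Arc was not called, at 3683, 3962 and 4801 in adult cortex and 1655, 2279 and 2225 in adult hippocampus. Of the glutamate synapse list 8 of 27 were lower in the cortex step and 2 higher: Gria1, an AMPA receptor subunit, changed by 0.50 in the cortex step and by 1.57 in the hippocampus step. Scn4b read 3168, 2515 and 2722 in adult cortex and lay under the floor in E18.5 forebrain, and read 269, 364 and 279 in adult hippocampus against 27.2, 18.4 and 35.4 in E18.5 hippocampus. Of the 10 hippocampal genes 6 were lower in the cortex step. Dsp, desmoplakin, a marker of dentate granule cells, read 54.6, 76.3 and 87.6 in adult cortex and 63.4, 75.8 and 89.4 in E18.5 forebrain, which overlap, and 1216, 1137 and 1085 in adult hippocampus against 42.2, 45.3 and 124 in E18.5 hippocampus. Rasgef1b, an exchange factor, read 1714, 1785 and 1301 in adult cortex against 1531, 1622 and 1216 in E18.5 forebrain, which overlap, and 279, 297 and 324 in adult hippocampus against 1837, 1351 and 1616 in E18.5 hippocampus. Microglial genes were higher in the cortex step in 5 of 18 cases and astrocyte genes in 7 of 25, with 1 astrocyte gene, Aqp4, the water channel, lower.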

How the data were processed

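Total RNA was hybridised to Affymetrix Mouse Genome 430 2.0 arrays, with 1 sample on each. The deposited values are linear intensities of 45101 probe sets that the authors made with GCOS, per the submitters' processing notes; the signal algorithm, version and scaling are not given in the sources here, and the trimmed means of the 59 arrays ran from 197.6 to 419.4. No 2 of the 59 arrays held identical values (1711 pairs compared). A common trimmed mean of 500 was set for all arrays (2% taken off each end), values under 32 were set to 32, and log2 was taken. Symbols came from the platform annotation, updated through Entrez IDs for 34754 probe sets: 34958 had 1 symbol, 932 several and 9211 none, and those with several or none were not used. The probe set with the highest mean over all arrays stood for each of 18194 genes. Genes with a scaled signal of at least 100 on at least 3 of the arrays compared were tested.

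Tests used limma 3.58.1 (lmFit and eBayes with an intensity trend) and R 4.3.3, tables were handled by data.table (version 1.17.8), and p-values had Benjamini-Hochberg adjustment over all genes tested. Differences between steps were interaction terms over 12 arrays. Files were read and figures drawn with Python 3.11.15, pandas 2.3.3, numpy 2.4.6 and matplotlib 3.10.9. Where all arrays of a group lay under the floor, the fold is a lower bound against the floor of 32. On data simulated for 12870 genes, 45% of changes of 0.5 and 85% of changes of 1 on the log2 scale were recovered. There were 8 false calls among 138. For the difference between tissues, simulated for 13722 genes, 21% and 56% were recovered, with 2 false calls among 79. The simulations held far fewer changed genes than were called between adult cortex and E18.5 forebrain. The number of arrays limits the precision.

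The genes named by rule were the 12 largest called rises and falls with non-overlapping values above the floor and a mean of 200 or more in the group that was higher, the 8 largest bounds each way, 8 differences each way between tissues and up to 8 between treatments, and members of the 38 gene lists and 22 gene pairs. The members and lists were chosen with earlier results of these data known. Alternatives were quantile normalization, no scaling, an added constant, other filters, other summaries of probe sets, a 2-fold minimum, the replicate number as a block and leaving out each array. Scaling on 9 spike-in probe sets and a covariate for sex inferred from the arrays were added after the data were seen.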

Additional observations from a re-analysis of the deposited data

Results flagged for a closer look

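The change between E18.5 and adulthood differed between the cortex step and the hippocampus step of MC offspring, by an interaction term in limma, for these genes named by rule. The differences, cortex step minus hippocampus step on the log2 scale, were 3.35 for Rspo1, 3.13 for Tac2, 2.77 for Myl4, 2.64 for Dusp14, 2.55 for Dtl, 2.54 for Rasgef1b, 2.50 for Wnt9a and 2.49 for Pdlim3. On the other side they were -4.29 for Dsp, -3.40 for Thsd4, -3.11 for Cpne6, -2.93 for Cidea, -2.93 for Cpne7, -2.86 for Spink8, -2.64 for Ebf1 and -2.56 for Fibcd1. The sign of a difference does not say in which tissue the gene moved. Rspo1, a secreted activator of Wnt signalling, read 276, 317 and 324 in adult cortex against 49.0, 54.9 and 53.9 in E18.5 forebrain, and 70.8, 79.8 and 77.7 in adult hippocampus against 196, 104 and 115 in E18.5 hippocampus.

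The change between E18.5 forebrain and adult cortex differed between VPA and MC offspring for 8 genes named by rule. The differences, VPA minus MC on the log2 scale, were 1.96 for Ggt7, 0.82 for Sap30, 0.67 for Ier5, 0.47 for Phc2, -0.53 for Map1a, -0.67 for Ntsr2, -0.73 for Rprml and -0.83 for Lrrfip1. All but Ggt7 and Sap30 had adjusted p-values above 0.028 in limma, close to the threshold of 0.05.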

How the results depend on the processing

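The number of genes that differed between adult cortex and E18.5 forebrain of MC offspring was 10446 and stayed within 1.5 times of this under every alternative but 2. With every probe set tested it was 18446 (10301 higher, 8145 lower), and with a 2-fold minimum 5087 (3205 higher, 1882 lower). Without scaling 2813 genes were lower, and with spike-in scaling 2986. Leaving out single arrays gave 9999 to 10431. In VPA offspring 3311 were lower without scaling. The difference between tissues was called for 534 genes without scaling (193 higher, 341 lower) and for 1330 to 1849 with single arrays left out. The difference between treatments was the least stable: 30 genes after quantile normalization (10 higher, 20 lower), 9 higher without scaling, 3 higher with 32 added before log2 and 3 higher without the filter. With single arrays left out it ran from 1 to 15, with 1 to 12 higher and 0 to 6 lower. The causes were not tested.

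Same-numbered deviations correlated at 0.042, 0.011 and 0.064, each above the highest value for other numbers (0.016, 0.0074 and -0.021). These values are small, and whether the replicate numbers pair the arrays was not settled. With the number as a block 10432 genes were called in MC offspring (5467 higher, 4965 lower), and 3 differed between treatments (3 higher, 0 lower).

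Signs turned after quantile normalization for Cox6a1 (0.056), Aldh1l1 (0.10), Gabra5 (0.020) and Jun (0.046) and for the medians of interneurons (-0.094), meninges (-0.25), the respiratory chain (0.056) and fetal RNA-binding proteins (0.012). Without scaling they turned for Aldh1l1 (0.17), Gabra5 (0.075), Jun (0.098) and the thalamic median (0.044). With spike-in scaling they turned for Cox6a1 (0.083), Aldh1l1 (0.38), Gabra5 (0.28), Jun (0.31), Pdgfra (0.17) and the medians of the respiratory chain (0.20), fetal RNA-binding proteins (0.19), thalamus (0.25) and hippocampus (0.0055). With the mean of the probe sets they turned for Prkcd (0.29), Hbb-b2 (-0.50), Aldh1l1 (0.45), Clic6 (-0.61), Fosl2 (0.23), Jun (0.027), Nr4a3 (0.085), Pdgfra (0.36) and the thalamic median (0.28). With the sex covariate they turned for Aldh1l1 (0.15), Cldn5 (-0.050), Olig2 (-0.0061) and the medians of meninges (-0.53), vessels (-0.066) and thalamus (0.054). Without the filter the hippocampal median was 0.17 and that of red cells 0.35. With single arrays left out, Aldh1l1 ran from -0.11 to 0.053, Olig2 from -0.018 to 0.15 and the meningeal median from -0.15 to 0.67. Aldh1l1, Gabra5, Jun, Pdgfra, Olig2 and Cldn5 had not been called to begin with. Many calls of genes named in the text that were lost under an alternative are given beside the genes, but not all. With a 2-fold minimum 40 of 283 named genes lost their call.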

Other observations

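Different probe sets of 1 gene often moved apart. Of 8493 other probe sets of called genes 78.7% had the sign of the probe set used. In 176 genes, probe sets called at 2-fold or more went both ways, and in 22 of these each direction had a signal of at least 500 in its higher group. The examples below were chosen after their values were seen. Septin11, a cytoskeletal GTPase, read 2412, 2776 and 2555 in adult cortex and 573, 586 and 595 in E18.5 forebrain on one probe set (2.14), and 949, 962 and 875 in adult cortex and 3878, 4001 and 3992 in E18.5 forebrain on another (-2.09). Kidins220, a scaffold of neurotrophin receptors, had 1.90 and -1.40. Dclk1, a kinase related to doublecortin, had 1.25 and -1.24. Ttll11, a tubulin glutamylase, had 2.63 and -1.74. Which transcripts these probe sets read was not tested.

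Genes of the red cell were barely measured: 4 of 14 listed passed the filter, with 2 higher and 2 lower. Of the promoter motifs searched, the cAMP response element TGACGTCA stood in 2 of 25 windows of immediate early genes (8%), against 1.79% of all windows. The sterol site TCACNCCA stood in 3 of 21 windows of cholesterol synthesis genes (14.3%), against 4.36% of all windows. These counts are small.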
